A study of Alligator mississippiensis with 17 samples.

Results

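The dental lamina is the strand of epithelium from which successive teeth bud, and it was compared here at the initiation stage of the tooth cycle (IS) and at the pre-initiation stage before it (PIS). The comparison takes every library that the sample titles place in these stages, which is 8 of the 17 in the series: 3 IS libraries and 5 PIS libraries. The other 9 libraries, 4 from early growth and 5 from replacement teeth, were not used in the main analysis. All came from untreated American alligators (Alligator mississippiensis) that were 1 year old and had been raised in the laboratory at 30 degrees. Total RNA of dissected tissue was made into sequencing libraries with a TruSeq kit. No genotype or treatment separates IS from PIS, so the only difference that the labels give between the groups is the stage. The separate field for the stage of the tooth cycle says pre-initiation throughout, IS libraries included, and the stages are therefore those of the titles. Nothing in the labels says that replicates came from separate animals, and the p-values therefore measure only the spread between these samples.

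Alligators, unlike most mammals, replace each tooth many times, and a lamina remains beside every functional tooth. When a new tooth is initiated, the lamina thickens and buds while mesenchyme gathers beneath it. In mouse and reptile tooth germs both tissues exchange FGF, BMP, WNT, hedgehog and ectodysplasin signals, and patches of epithelium that make many of these ligands are called signalling centres. Tissue dissected as lamina can carry the neighbouring mesenchyme, vessels, nerves and blood. In such bulk samples, fewer cells of a type and less RNA per cell cannot be told apart.

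The deposited values are RPKM, read numbers scaled to the length of the gene model and to the alignments of the library, and they were analysed as log2(RPKM + 0.5). Fold changes below are IS minus PIS on that scale with their standard error, and they understate the change of genes close to 0. Of 20703 genes in the table, the 12271 with at least 1 RPKM in at least 3 of the 8 libraries were tested with limma, and p-values were adjusted by the Benjamini-Hochberg method over all of them. A gene was called at an adjusted p under 0.05. RPKM values of single libraries are listed in replicate order, 1 to 3 for IS and 1 to 5 for PIS.

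The libraries held 22393100 to 25075900 alignments in IS and 9667270 to 29195900 in PIS, with PIS replicate 3 the shallowest. The first principal component (49.0% of the variance) placed the IS libraries at 44.8, 27.5 and 45.0 and the PIS libraries at -12.8, -27.2, -8.56, -3.49 and -65.4. PIS replicate 5 thus lay farthest from IS, and IS replicate 2 was the IS library nearest to PIS. Spearman's rho across genes, which are not independent replicates, was 0.943 to 0.973 between IS libraries and 0.891 to 0.955 between PIS libraries. No 2 of the 8 libraries held identical values.

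Epithelial markers were present in all 8 libraries but low in PIS replicate 5. The summed RPKM of 12 epithelial markers (among them KRT14, TP63, CDH1 and EPCAM) was 1277, 1004 and 1182 in IS, against 807, 638, 885, 691 and 133 in PIS. In PIS replicate 5 the cadherin gene CDH1 stood at 0.659 RPKM and the basal keratinocyte factor TP63 at 0.897 RPKM. The other PIS libraries held 10.7 to 23.6 RPKM of CDH1 and 7.92 to 14.5 RPKM of TP63. None of the 12 markers was called between the stages, and their median log2 fold change was 1.31, or 0.70 without PIS replicate 5. Fibroblast and mesenchyme markers (24 genes) summed to 5907, 13765 and 6468 RPKM in IS and 7581 to 11009 RPKM in PIS, so every library carried mesenchyme and IS replicate 2 the most. How far these contents take part in the differences below was not tested.

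**Figure D1:**
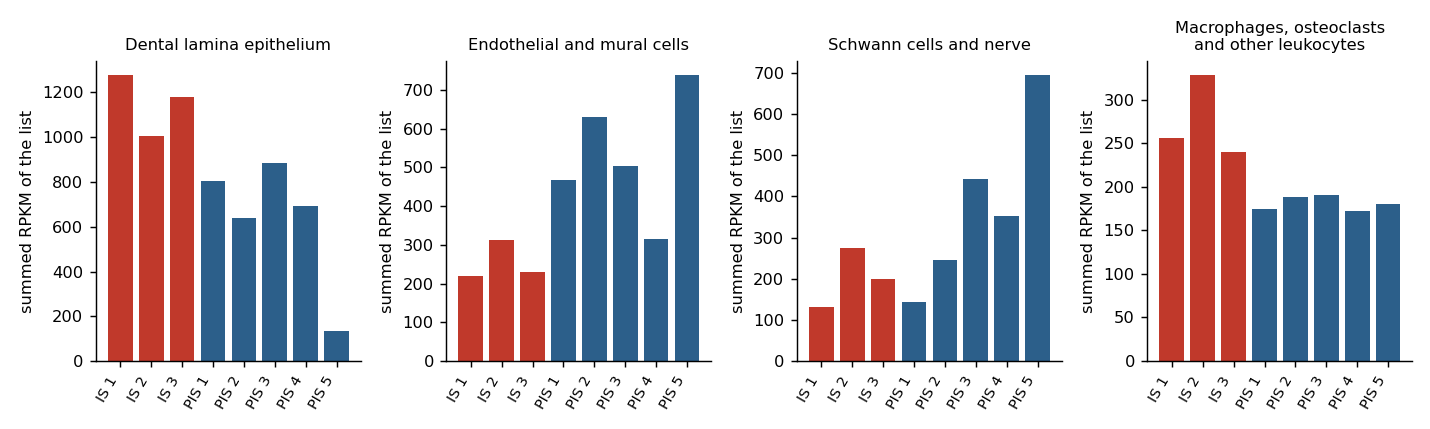
Summed RPKM (vertical axes) of 4 marker lists in each library, with the 3 IS libraries in red on the left of each panel and the 5 PIS libraries in blue. Epithelial markers are lowest in PIS replicate 5 (133 RPKM), endothelial and mural markers are lowest in IS (220 to 313 RPKM, against 316 to 738 RPKM in PIS), and leukocyte markers are highest in IS (240 to 328 RPKM, against 173 to 191 RPKM in PIS).

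Far more genes were higher than lower at initiation. Of the 12271 genes tested, 1355 (11%) were called higher at IS and 139 (1.13%) were called lower. Every count of called list members below is to be read beside these shares. The fold change of the median gene was 0.28, and 9597 genes (78.2%) had a log2 fold change above 0. Summed RPKM over all genes was also higher, at 244483 to 256953 in IS against 211231 to 236600 in PIS. Median-ratio scaling, which moves the median gene to 0.02, left 314 higher (2.56%) and 207 lower (1.69%). All 314 and 118 of the 207 were also called without scaling. Most of the 1355 rises thus lost their call, which is not stated for every gene below. Without PIS replicate 4, 1285 of 12194 genes were higher (10.5%) and 179 lower (1.47%), with 1116 and 118 of them shared with the full set. The ranges of the 3 IS and the 5 PIS libraries did not overlap for 3363 genes (27.4%). IS was the higher group in 3087 of those (25.2%). Among called genes the ranges did not overlap for 1317 of the 1355 higher and 125 of the 139 lower. Groups said below to be apart therefore add little to a call.

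The number of calls rests on 2 libraries. Without IS replicate 1 only 8 genes were called, all higher, and without IS replicate 3 only 18, all higher. At an unadjusted p under 0.05 there were still 2164 genes higher and 271 lower without IS replicate 1, and 2259 and 283 without IS replicate 3. Of 161 called genes that the naming rule selected, 151 were tested in each of these fits. None of the 151 changed sign, but 148 and 146 lost their call. The named genes not tested there fell below the expression filter once an IS library was removed. They include the great rises FGF3, DLK1, BEGAIN, CGA and CCDC60, and also RET, so these fits could not check those genes. SPRY2, UHRF1 and CDK2 kept theirs in both. Leaving out IS replicate 2 or PIS replicate 2 gave 864 and 876 calls. The losses without IS replicate 1 or 3 apply to nearly every call reported below that those fits tested, and are not repeated.

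**Figure D2:**
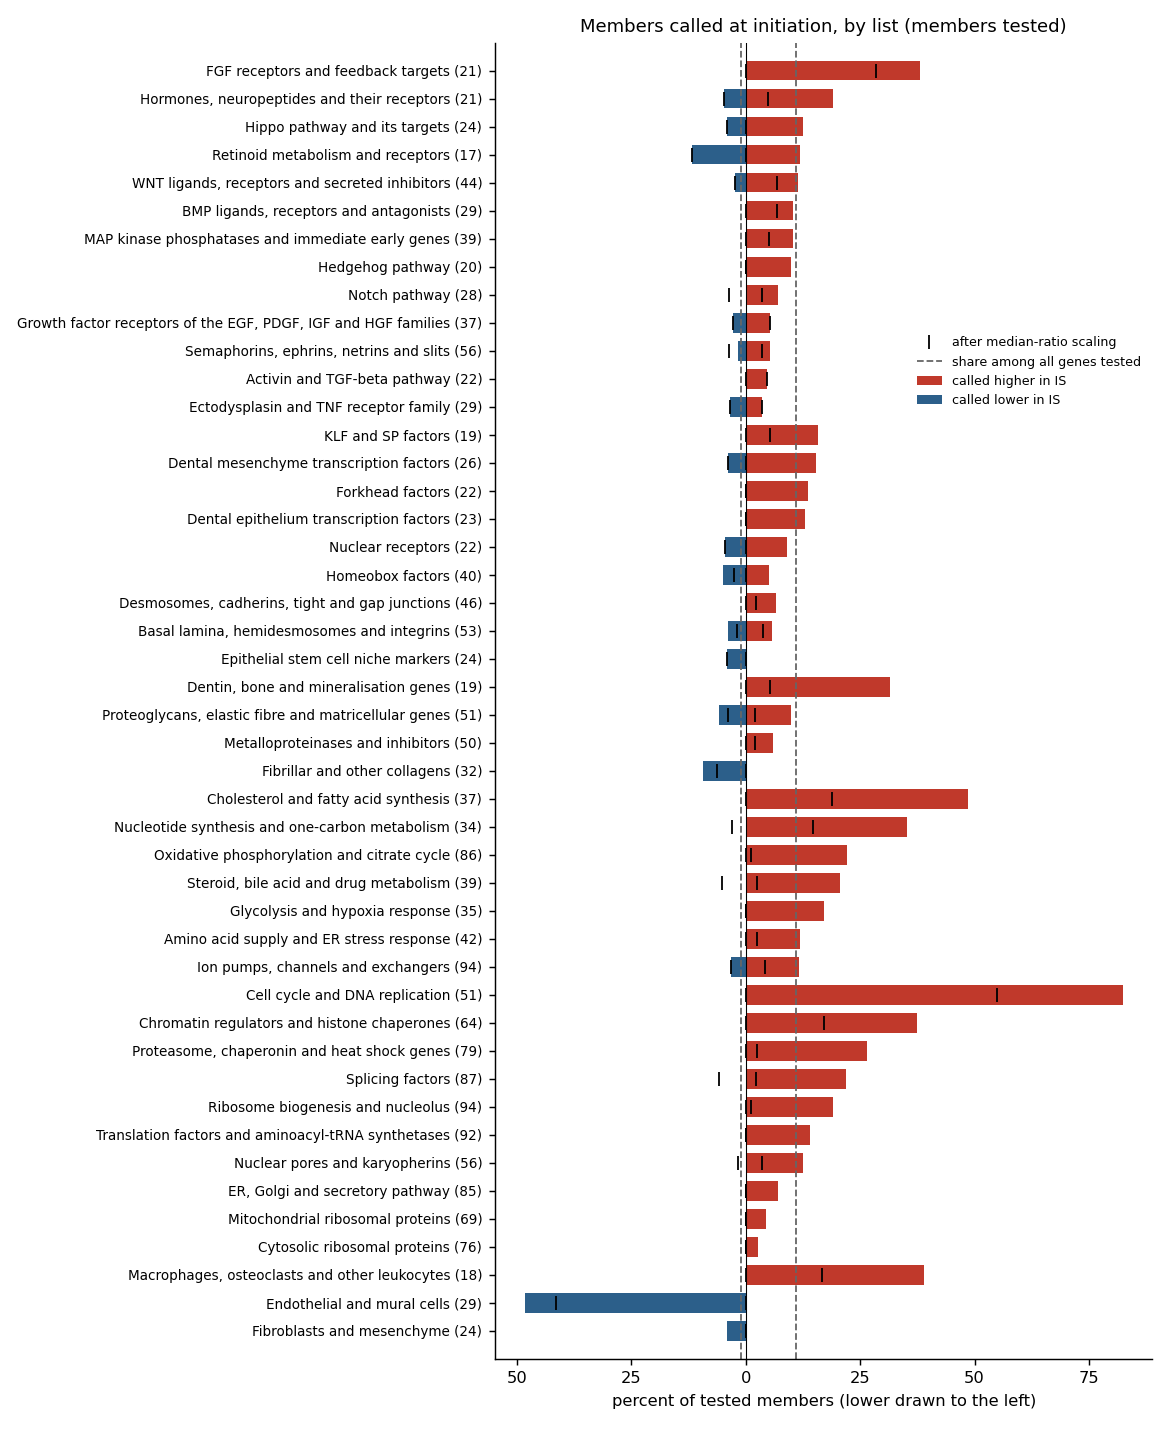
Percent of the tested members of each gene list (number tested in parentheses) that were called higher in IS (red, to the right) or lower in IS (blue, to the left), for lists with at least 15 tested members. Dashed lines mark the shares among all genes tested (11% higher, 1.13% lower) and black ticks the shares after median-ratio scaling. Cell cycle, cholesterol synthesis, leukocyte, FGF feedback and chromatin lists reach farthest to the right, and endothelial and mural genes farthest to the left.

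Among called genes with a symbol and no overlap between the groups, the greatest rise was that of FGF3, a ligand of tooth germs. FGF3 stood at 34.3, 9.5 and 25.1 RPKM in IS, against 0, 0.0792, 0, 0.496 and 0 RPKM in PIS, which is a difference of 5.13 ± 0.40 (SE) on the log2 scale with an adjusted p of 0.00154. Every IS library was far above a PIS group that was at or close to 0. FGF3 stayed under 1 RPKM in all 5 PIS libraries, so it met the filter only because all 3 IS libraries reached 1 RPKM. The same holds for DLK1, BEGAIN, CGA and CCDC60, and below for RET, HGF, KERA, DUSP26, NEFH and HMGA1. For these genes, values of 1 RPKM or more in every IS library were a condition of being tested and are no added support. DLK1, which encodes a membrane-bound regulator related to Notch ligands, had 20.6, 4.62 and 15.2 RPKM in IS and 0, 0.047, 0.212, 0.187 and 0 RPKM in PIS (4.36 ± 0.41, adjusted p = 0.00154). NPTX2, a neuronal pentraxin gene, had 40.7, 5.76 and 32.3 RPKM in IS and 0.0526, 0.282, 0.196, 2.15 and 2.1 RPKM in PIS (4.14 ± 0.72, adjusted p = 0.0116). In these genes IS replicate 2 was the lowest of the 3 IS libraries, as it was for BEGAIN (7.59, 2.16 and 7.36 RPKM in IS, at most 0.0394 RPKM in PIS). AKR1D1 encodes the steroid reductase of bile acid synthesis. It reached 135, 28.8 and 117 RPKM in IS, against 5.86, 6.8, 4, 18.2 and 2.79 RPKM in PIS (3.55 ± 0.60, adjusted p = 0.011). CGA, the common alpha subunit of the glycoprotein hormones, had 8.62, 11.5 and 5.35 RPKM in IS and 0.187, 0.103, 0, 0.939 and 0.272 RPKM in PIS (3.53 ± 0.36, adjusted p = 0.00203). CGA is one of the genes for which IS replicate 2 was the highest.

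PRDM1, the gene of the transcriptional repressor Blimp1, held 17.4, 13.2 and 11.8 RPKM in IS and 0.519, 1.07, 1.15, 3.42 and 0.632 RPKM in PIS (3.14 ± 0.39, adjusted p = 0.00538). GPR64, an adhesion receptor gene, held 77.5, 36.6 and 67.2 RPKM in IS and 6.16, 7.28, 8.86, 19.9 and 0.238 RPKM in PIS (3.29 ± 0.86, adjusted p = 0.0361). TAC1, the gene of the neuropeptide substance P, held 26.8, 26.7 and 21.3 RPKM in IS and 9.81, 2.16, 2.24, 5.7 and 0 RPKM in PIS (3.09 ± 0.78, adjusted p = 0.0335). The 5 PIS libraries were spread widely for TAC1 but all lay below IS, as the selection without overlap required. MMP13, a collagenase gene, was the rise most uneven within IS, at 3.48, 50.4 and 4.25 RPKM against 0.216, 0.695, 0.478, 0.339 and 1.5 RPKM in PIS (3.21 ± 0.74, adjusted p = 0.0258). The high value belongs to IS replicate 2, the library with the most fibroblast and bone marker RNA. SAMD10 (3.60 ± 0.64) and CCDC60 (2.84 ± 0.26) completed the greatest rises together with EDAR, IL17RD and RSPO2, which are described with their pathways. Calls of GPR64, TAC1 and MMP13 were lost after median-ratio scaling (adjusted p 0.0792, 0.0751 and 0.0619), while all 15 were kept without PIS replicate 4.

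The greatest falls included genes of smooth muscle and vessel cells. Summed markers of these cells were lower in IS than in PIS. That sum includes ACTG2, MYH11, LMOD1, DES.1, EMCN and LYVE1, so it is not separate from their falls. ACTG2, a smooth muscle actin gene, had 27.9, 34.3 and 27.3 RPKM in IS and 102, 163, 109, 62.6 and 159 RPKM in PIS (-1.91 ± 0.28, adjusted p = 0.00718). The smooth muscle genes MYH11, LMOD1 and DES.1 and the actinin-binding PDLIM3 fell by 1.84, 1.57, 2.04 and 1.53. SBSPON, the gene of a thrombospondin-repeat matrix protein, had the greatest fall, with 0.686, 2.41 and 1.48 RPKM in IS and 3.43, 8.62, 10.2, 9.69 and 17.6 RPKM in PIS (-2.30 ± 0.44, adjusted p = 0.016). ANG, the gene of the secreted ribonuclease angiogenin, had 2.55, 5.83 and 3.45 RPKM in IS and 9.79, 15.3, 14.7, 17.6 and 24.7 RPKM in PIS (-1.94 ± 0.30, adjusted p = 0.00857). TGM2, which crosslinks matrix proteins, had 0.962, 2.1 and 1.34 RPKM in IS and 8.49, 6.55, 3.99, 3.63 and 9.47 RPKM in PIS (-1.77 ± 0.33, adjusted p = 0.0149). In each of these 4 genes the highest IS library was below the lowest PIS library, as their selection without overlap required. ABI3BP, FAM129C, GUCY1A3, EMCN, LYVE1, MUSTN1 and NRN1 made up the rest of the 15, with falls of 1.58 to 1.82. GUCY1A3, MUSTN1 and PDLIM3, and below ALDH1A2 and HOXD9, stayed under 1 RPKM in every IS library. They met the filter only through PIS, so PIS values of 1 RPKM or more are no added support for these genes. MUSTN1 was a low gene in PIS replicate 4 too (0.294 RPKM, against 1.4 to 2.53 RPKM in the other PIS libraries), and it lost its call after scaling (adjusted p = 0.0546), as did EMCN (adjusted p = 0.0603). EMCN was also not called without PIS replicate 5 (adjusted p = 0.0586).

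**Figure D3:**
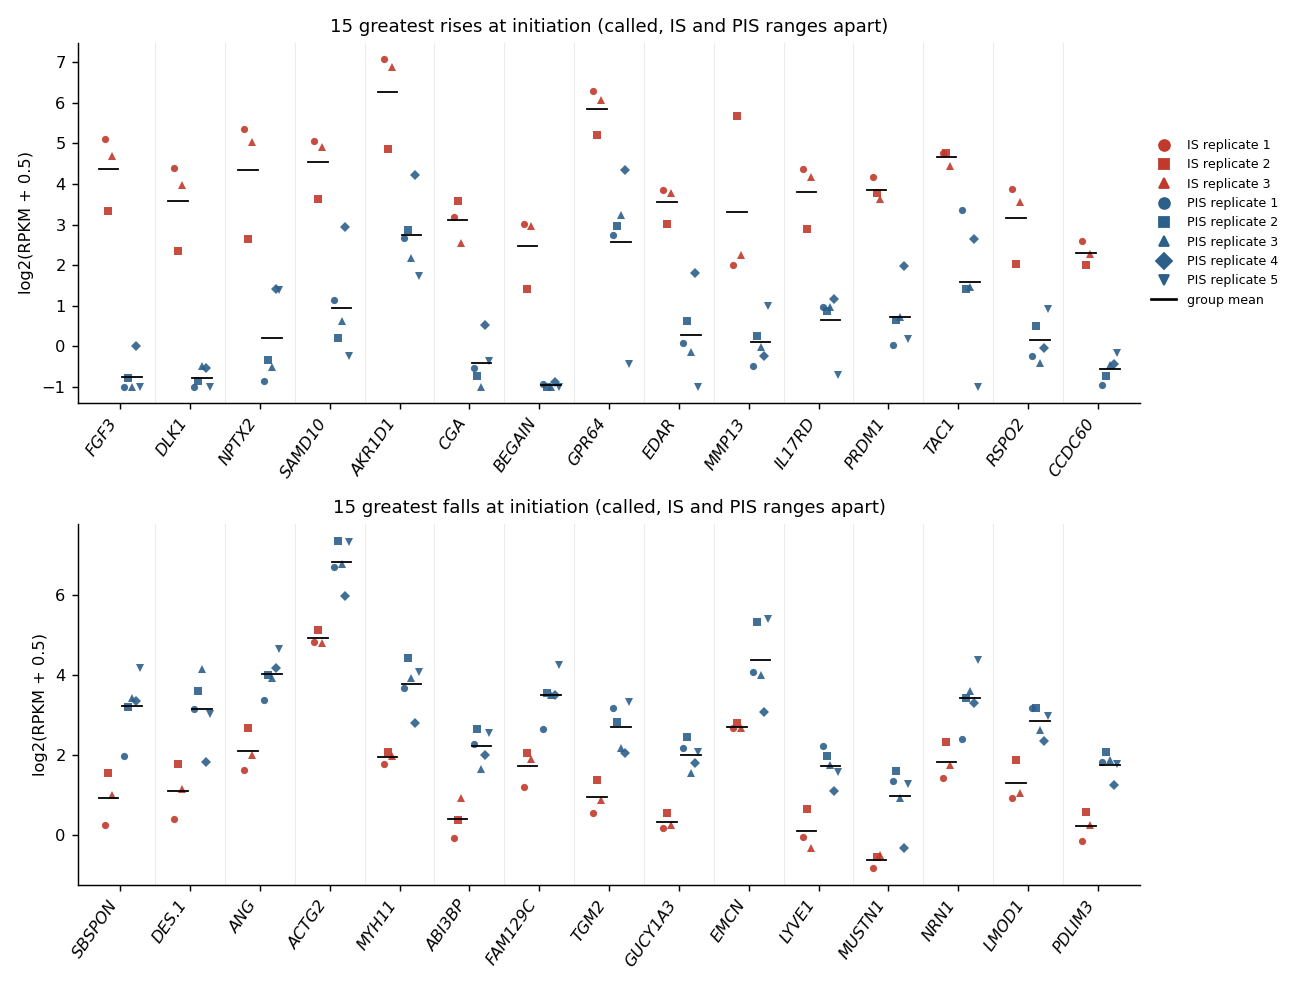
log2(RPKM + 0.5) of the 15 genes with the greatest rises (top) and the 15 with the greatest falls (bottom), with the 3 IS libraries in red left of the 5 PIS libraries in blue and the group mean as a bar. For FGF3 the IS libraries lie at 9.50 to 34.3 RPKM and the PIS libraries at 0 to 0.496 RPKM, and IS replicate 2 is the lowest IS library for many rises but the highest for MMP13 (50.4 RPKM).

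Among the signalling lists, FGF receptors and feedback targets had the highest share of members called higher. FGF ligands act on receptor tyrosine kinases, and cells that receive the signal through the ERK kinase cascade switch on ETS factors and a set of inhibitors that dampen it. Of 9 ligand genes tested, 2 were higher (FGF3 and FGF10) and none was lower. FGF10, a mesenchymal ligand that maintains dental epithelial stem cells in the mouse incisor, had 18.9, 8.65 and 16.6 RPKM in IS and 4.4, 2.48, 2.39, 2.31 and 1.99 RPKM in PIS (2.21 ± 0.29, adjusted p = 0.00554). FGF7, another mesenchymal ligand, was not called in the full set, with 5.19, 4.02 and 6.23 RPKM in IS and 7.45, 13.7, 9.53, 7.01 and 16.2 RPKM in PIS (-0.95 ± 0.28, adjusted p = 0.0537). Without PIS replicate 4 it was lower in IS (-1.07, adjusted p = 0.0374).

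Of 21 FGF receptors and feedback targets tested, 8 were higher (38.1%, beside 11% of all genes) and none was lower, with a median of 0.89 beside 0.28. The receptors FGFR2 and FGFR3 were not among them. FGFR2 stood at 21.2, 33.3 and 25.5 RPKM in IS and 50.2, 37.7, 24.4, 29.8 and 34.4 RPKM in PIS. The ETS factor gene ETV4 stood at 26.7, 16 and 25.1 RPKM in IS, against 3.07, 4.13, 2.94, 7.14 and 1.48 RPKM in PIS (2.55 ± 0.37, adjusted p = 0.00718). Its relatives ETV1 (1.41 ± 0.26, adjusted p = 0.0135) and ETV5 (0.78 ± 0.13, adjusted p = 0.00908) rose less. ETV5 was the most even of the 3, with 14.4, 14.2 and 13.4 RPKM in IS and 7.63, 7.32, 9.29, 7.81 and 7.67 RPKM in PIS. SPRY2 encodes an inhibitor of receptor tyrosine kinase signalling. It had 26.4, 17.4 and 16.7 RPKM in IS and 5.73, 5.89, 5.2, 6.92 and 5 RPKM in PIS (1.70 ± 0.18, adjusted p = 0.00209), a tight group on either side. IL17RD, the gene of a membrane inhibitor of FGF receptors, had 20.4, 6.87 and 17.4 RPKM in IS and 1.47, 1.34, 1.45, 1.74 and 0.11 RPKM in PIS (3.16 ± 0.47, adjusted p = 0.00718). The Ras inhibitor gene SPRED1 rose by 1.13 ± 0.20 (adjusted p = 0.0119).

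The ERK phosphatase genes DUSP6 and DUSP4 rose as well. DUSP6 had 15.7, 19.7 and 11.5 RPKM in IS and 5.95, 6.43, 9.18, 12 and 7.73 RPKM in PIS (0.89 ± 0.24, adjusted p = 0.0431), and PIS replicate 4 overlapped the lowest IS library. DUSP4 rose by 1.19 ± 0.19 (adjusted p = 0.00893) with no overlap. After scaling 6 of the 8 kept their call, ETV5 (adjusted p = 0.0529) and DUSP6 (adjusted p = 0.19) being the exceptions, and DUSP6 was also lost without PIS replicate 5 (adjusted p = 0.0598). Without PIS replicate 4 all 8 were called. In the wider list of 39 MAP kinase phosphatases and immediate early genes, DUSP26 and DUSP7 were the other members called, making 4 higher (10.3%, close to the 11% of all genes) and 0 lower. The list's median was 0.95, but its libraries were uneven within both stages, with a mean log2 level of 2.98, 5.20 and 4.86 in IS and 2.19, 2.44, 4.80, 4.65 and 3.11 in PIS. IS replicate 1 lay below PIS replicates 3, 4 and 5.

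**Figure D4:**
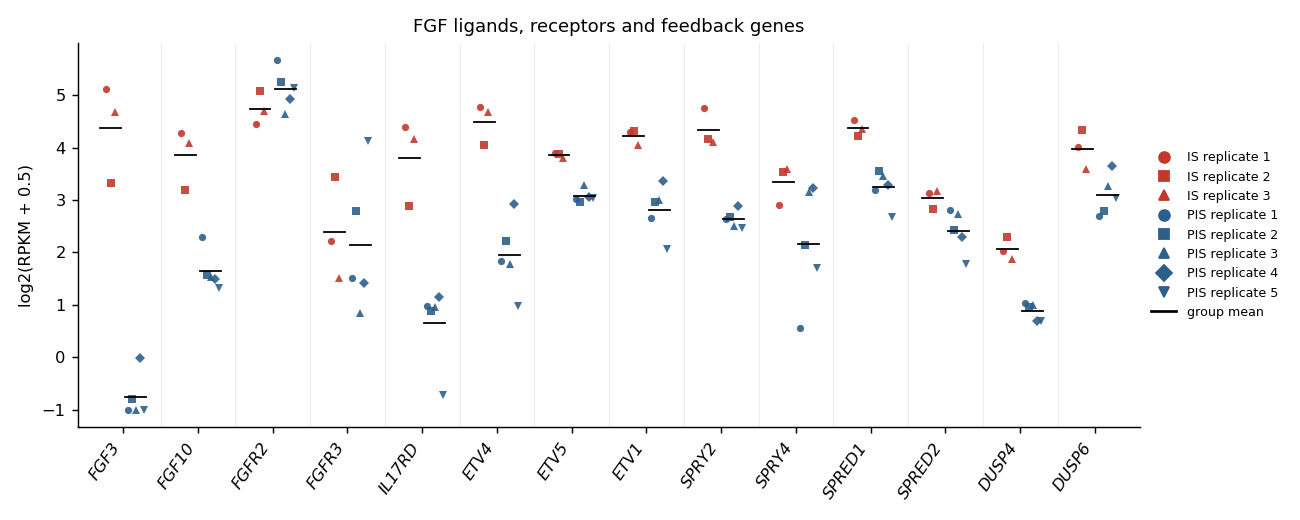
log2(RPKM + 0.5) of FGF ligands, receptors and feedback genes, with the 3 IS libraries in red left of the 5 PIS libraries in blue and the group mean as a bar. SPRY2 (16.7 to 26.4 RPKM in IS, 5 to 6.92 RPKM in PIS) and IL17RD (6.87 to 20.4 RPKM in IS, 0.110 to 1.74 RPKM in PIS) are separated, while FGFR2 and FGFR3 overlap.

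Ectodysplasin signals through EDAR to NF-kappaB and is required for normal tooth number in mammals. EDAR had 14.1, 7.59 and 13.3 RPKM in IS and 0.553, 1.03, 0.401, 2.99 and 0 RPKM in PIS (3.29 ± 0.53, adjusted p = 0.00908). PIS replicate 4 was the highest of its group and still below the lowest IS library. Of 29 genes of the ectodysplasin and TNF receptor family tested, only EDAR was higher and only TNFRSF1B, a TNF receptor gene, was lower (-1.03 ± 0.28, adjusted p = 0.0394). The call of TNFRSF1B was lost without PIS replicate 5 (adjusted p = 0.0534).

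In the hedgehog pathway 2 of 20 genes were called higher (10%, close to the 11% of all genes), SCUBE3 and SCUBE1, secreted members of a family that aids the release of hedgehog ligands. SCUBE3 had 64.8, 37.2 and 58.1 RPKM in IS and 4.48, 7.54, 29, 13.3 and 1.58 RPKM in PIS (2.70 ± 0.69, adjusted p = 0.0349), so that PIS replicate 3 was closest to IS. SCUBE1 rose by 1.83 ± 0.52 (adjusted p = 0.046) and its groups overlapped. Neither was called after scaling (adjusted p 0.0796 and 0.11), and SCUBE1 was not called without PIS replicate 4 (adjusted p = 0.0567) or PIS replicate 5 (adjusted p = 0.0562). SHH is given with the genes of PIS replicate 4.

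BMP ligands act through SMAD proteins and their antagonists limit where teeth form. Of 29 genes tested, 3 were higher (10.3%, close to the 11% of all genes) and none lower, and the median of 0.16 was below the 0.28 of all genes. The ligand gene BMP7 had 10.3, 4.94 and 8.46 RPKM in IS and 0.477, 1.06, 1.02, 3.04 and 0.157 RPKM in PIS (2.53 ± 0.48, adjusted p = 0.0152). BMP3, a ligand that opposes other BMPs, had 6.32, 4.05 and 5.46 RPKM in IS and 0.986, 1.11, 1.58, 0.796 and 0.128 RPKM in PIS (2.11 ± 0.36, adjusted p = 0.0108). In both the IS libraries stood above every PIS library. SOSTDC1, a secreted antagonist of BMP and WNT whose loss gives extra teeth in mice, had 96.4, 10.5 and 65.6 RPKM in IS and 2.2, 2.02, 8.3, 13.5 and 6.31 RPKM in PIS (2.87 ± 0.75, adjusted p = 0.037). IS replicate 2 lay below PIS replicate 4, so its groups overlapped, and the call was lost after scaling (adjusted p = 0.086). BMP4, the classical inducer in tooth mesenchyme of the mouse, did not differ beyond its spread, with 3.73, 5.77 and 4.35 RPKM in IS and 5.43, 2.51, 4.85, 6.92 and 1.81 RPKM in PIS (adjusted p = 0.716).

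Among 22 activin and TGF-beta genes INHBA, the activin subunit gene, was the one called, with 21.1, 27.6 and 18.7 RPKM in IS and 7.71, 8.02, 7.19, 10.01 and 11.2 RPKM in PIS (1.30 ± 0.19, adjusted p = 0.00718). In WNT signalling the list of ligands, receptors and secreted inhibitors had 5 higher and 1 lower of 44 tested, a share of 11.4% higher that matches the 11% of all genes. WLS, which carries WNT proteins to the cell surface, had 109, 105 and 101 RPKM in IS and 38.9, 43.1, 42.4, 42.8 and 22 RPKM in PIS (1.5 ± 0.21, adjusted p = 0.00718). RSPO2, an amplifier of WNT signalling, had 14.1, 3.59 and 11.3 RPKM in IS and 0.352, 0.914, 0.25, 0.473 and 1.39 RPKM in PIS (3.01 ± 0.44, adjusted p = 0.00718). The ligand gene WNT2 had 5.48, 4.5 and 4 RPKM in IS and 0.461, 0.821, 0.0882, 1.37 and 0.155 RPKM in PIS (2.38 ± 0.37, adjusted p = 0.00865). The groups were apart in all 3. The receptor genes FZD3 (0.99 ± 0.20) and FZD2 (0.56 ± 0.13) rose less and lost their calls after scaling. The secreted antagonist FRZB was lower, at 4.74, 4.94 and 3.95 RPKM in IS and 9.29, 12.8, 9.98, 6.74 and 13.2 RPKM in PIS (-1.08 ± 0.21, adjusted p = 0.0172). LEF1, a nuclear effector of the pathway, had 22.8, 28.9 and 21.9 RPKM in IS and 16.8, 12, 7.21, 17.2 and 3.88 RPKM in PIS, yet it was not called (1.24 ± 0.42, adjusted p = 0.077).

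Notch signalling had 2 higher genes of 28, DLK1 (above) and the receptor gene NOTCH1 (0.80 ± 0.22, adjusted p = 0.0419), whose groups overlapped through PIS replicate 3. NOTCH1 was not called without PIS replicate 4 (adjusted p = 0.0665), without PIS replicate 5 (adjusted p = 0.0613) or after scaling (adjusted p = 0.182), which leaves DLK1 as the one higher gene carried over. Of 56 guidance genes (semaphorins, ephrins, netrins, slits and their receptors) 3 were higher and 1 lower, shares of 5.36% and 1.79%. EPHA2, an ephrin receptor of epithelia, had 24, 20.1 and 32 RPKM in IS and 3.57, 3.95, 6.71, 7.26 and 3.87 RPKM in PIS (2.25 ± 0.26, adjusted p = 0.0036). The slit receptor gene ROBO1 rose by 1.09 ± 0.19 (adjusted p = 0.0117) and SEMA6A by 1.27 ± 0.25 (adjusted p = 0.0166). SEMA6A was not called after scaling (limma, adjusted p = 0.0564). ROBO4, the slit receptor of endothelium, was lower (-0.88 ± 0.22, adjusted p = 0.0334).

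Among 37 growth factor and receptor genes of the EGF, PDGF, IGF and HGF families and related kinases, 2 were higher and 1 lower. RET, the receptor gene for glial-derived neurotrophic factors, had 4.65, 2.81 and 4.23 RPKM in IS and 0.23, 0.301, 0.151, 0.422 and 0.123 RPKM in PIS (2.55 ± 0.24, adjusted p = 0.00154). HGF, a ligand made by mesenchyme, had 5.75, 2.52 and 2.86 RPKM in IS and 0.54, 0.475, 0.346, 0.279 and 0.43 RPKM in PIS (2.13 ± 0.27, adjusted p = 0.00554). Both were close to 0 in PIS, where the added 0.5 narrows the spread on the log2 scale. Their RPKM ran from 0.123 to 0.422 for RET and from 0.279 to 0.54 for HGF. Both kept their calls after scaling. IGFBP7, a secreted binding protein abundant in vessels, had 20.2, 31 and 21.8 RPKM in IS and 53.5, 73.8, 67.9, 59.6 and 94.6 RPKM in PIS (-1.5 ± 0.20, adjusted p = 0.00708).

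Of 21 hormone and neuropeptide genes and their receptors, 4 were higher and 1 lower (19.0% higher), while the list's median was 0.04. Beside CGA and TAC1 these were NTS, the neurotensin gene, and PTHLH. NTS had 7.91, 1.88 and 10.4 RPKM in IS and 0.386, 0.753, 1.74, 1.39 and 0.305 RPKM in PIS (2.21 ± 0.52, adjusted p = 0.0267). PTHLH encodes parathyroid hormone-related protein, which tooth eruption requires in the mouse. It had 85.6, 56 and 69 RPKM in IS and 34.3, 36.8, 40.2, 57.1 and 30.2 RPKM in PIS (0.83 ± 0.21, adjusted p = 0.0336), with PIS replicate 4 inside the IS range. RAMP2, a subunit of the adrenomedullin receptor of vessels, was lower (-1.21 ± 0.29, adjusted p = 0.0304). After scaling CGA was the one higher gene still called.

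Retinoid genes went both ways, with 2 higher and 2 lower of 17 (11.8% each, beside 11% higher and 1.13% lower of all genes). The orphan receptor genes NR2F1 (1.21 ± 0.25, adjusted p = 0.0196) and NR2F6 (0.80 ± 0.18, adjusted p = 0.0254) were higher. ALDH1A2, whose product makes retinoic acid, had 0.216, 0.496 and 0.536 RPKM in IS and 1.55, 2.05, 0.808, 1.48 and 3.67 RPKM in PIS (-1.31 ± 0.35, adjusted p = 0.0395). The retinoid X receptor gene RXRG was lower by a like amount (-1.40 ± 0.36, adjusted p = 0.0355). After scaling RXRG was still called (limma, adjusted p = 0.0498), but ALDH1A2, NR2F1 and NR2F6 were not (adjusted p 0.0586, 0.0792 and 0.151). The list of 22 nuclear receptors held the same calls, NR2F1 and NR2F6 higher and RXRG lower. Without PIS replicate 4 the fold changes of ALDH1A2 and RXRG were -1.35 and -1.41 and neither was called (adjusted p 0.0519 and 0.0526). In the Hippo pathway the kinase genes STK4 and STK3 and the cofactor gene VGLL4 were higher by 0.50 to 0.85, none of them after scaling. STK3 and VGLL4 were not called without PIS replicate 4 (adjusted p 0.0716 and 0.0654) or PIS replicate 5 (adjusted p 0.0626 and 0.0654). CTGF, a target of the Hippo effector YAP, was lower, with 6.36, 19.97 and 9.92 RPKM in IS and 20.7, 29.1, 40.5, 21.3 and 32.9 RPKM in PIS (-1.33 ± 0.34, adjusted p = 0.034), a call lost without PIS replicate 5 (adjusted p = 0.0514).

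Transcription factors of the tooth changed in a few members only. Of 23 factors of dental epithelium, SP7, CUX1 and SP6 were higher (13.0%, median 0.70). Of 26 factors of dental mesenchyme, PAX9, RUNX2, ALX1 and DLX4 were higher and MEOX2 was lower. ALX1 was not called without PIS replicate 4 (adjusted p = 0.0576), without PIS replicate 5 (adjusted p = 0.0532) or after scaling (adjusted p = 0.0989). PAX9, without which mouse teeth stop at the bud stage, had 14.5, 14.1 and 15.3 RPKM in IS and 5.59, 6.26, 8.95, 11.4 and 5.77 RPKM in PIS (0.96 ± 0.23, adjusted p = 0.0275). RUNX2, a factor of bone and tooth mesenchyme, had 13.5, 17.2 and 12.5 RPKM in IS and 11.3, 7.08, 5.82, 8.55 and 7.7 RPKM in PIS (0.81 ± 0.20, adjusted p = 0.0332). SP7, which acts after RUNX2 in bone, had 7.63, 6.36 and 8.63 RPKM in IS and 0.675, 1.57, 0.387, 2.2 and 3.43 RPKM in PIS (2.09 ± 0.44, adjusted p = 0.0196). The groups were apart for these 3 genes, but none kept its call after scaling (adjusted p 0.111, 0.15 and 0.0564). CUX1, DLX4 and SP6 lost theirs too (limma, adjusted p 0.136, 0.107 and 0.07). No rise on either list was thus called after scaling. DLX4 had 22.5, 12.6 and 22.2 RPKM in IS and 0.722, 1.79, 0.629, 13.2 and 5.19 RPKM in PIS (2.66 ± 0.74, adjusted p = 0.0448), with PIS replicate 4 above the lowest IS library. MEOX2, a mesenchymal homeobox gene, fell by 1.17 (adjusted p = 0.0339). MSX1, with 47.2, 72.2 and 40.6 RPKM in IS and 61.3, 32.8, 68.5, 67.4 and 72.7 RPKM in PIS, was not called (adjusted p = 0.678).

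SOX2, a stem cell factor of the lamina in reptiles, was low and level, with 2.44, 2.68 and 2.75 RPKM in IS and 3.29, 3.95, 2.82, 1.93 and 2.35 RPKM in PIS (-0.08 ± 0.22, adjusted p = 0.811). Of 10 SOX genes SOX11 was the one that rose, to 19.1, 17.3 and 15.3 RPKM in IS, against 3.97, 4.86, 3.38, 6.71 and 0.948 RPKM in PIS (2.16 ± 0.43, adjusted p = 0.017). SOX17, an endothelial factor, and SOX10, a factor of Schwann cells and melanocytes, fell by 1.02 and 1.67. The summed Schwann cell and nerve markers were 130 to 275 RPKM in IS and 144 to 694 RPKM in PIS, and SOX10 was highest in PIS replicate 5 (2.88, 9.1, 8.91, 8.1 and 19.8 RPKM in PIS). Of 19 KLF and SP genes the SP members SP5, SP7 and SP6 were the ones called. SP5, a target of WNT signalling, had 24.7, 16.2 and 10.3 RPKM in IS and 2.08, 4.98, 3.44, 7.35 and 2.13 RPKM in PIS (2.02 ± 0.40, adjusted p = 0.0169). Of 22 forkhead genes FOXP4 (1.38 ± 0.30), FOXM1 (1.26 ± 0.28) and FOXO6 (0.68 ± 0.18) were higher, none of them after scaling. Of 40 genes on a list of homeobox and paired box factors, PAX9 and DLX4 were higher, and HHEX (-1.14 ± 0.27) and HOXD9 (-1.05 ± 0.29) lower. FOXO6 was not called without PIS replicate 4 (adjusted p = 0.056), nor HOXD9 without PIS replicate 5 (adjusted p = 0.0556).

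Structural genes of the epithelium gave few calls. None of 14 keratin and cornified envelope genes was called by limma, and 5 were higher at an unadjusted p under 0.05. Their median was 0.84, or 0.55 without PIS replicate 5, where 3 were called higher. The smallest p was that of KRT18, a keratin of simple epithelia, with 58, 43.2 and 52 RPKM in IS and 35.4, 25.8, 29.1, 38 and 14 RPKM in PIS (0.90 ± 0.29, adjusted p = 0.0668). Of 46 junction genes, 3 were higher. PKP2, a desmosomal plaque gene, had 12.7, 9.15 and 12.1 RPKM in IS and 2.77, 6.2, 3.99, 3.56 and 1.39 RPKM in PIS (1.64 ± 0.34, adjusted p = 0.0201). The connexin gene GJA7 rose by 1.53 ± 0.34 (adjusted p = 0.0239) and the nectin gene PVRL2 by 0.81 ± 0.22 (adjusted p = 0.0434). GJA7 and PVRL2 were not called after scaling (limma, adjusted p 0.068 and 0.165). PKP2 was lowest in PIS replicate 5, the library poor in epithelial markers. GJA7 was not, with 1.08, 0.825, 3.19, 2.63 and 1.08 RPKM in PIS. Without PIS replicate 5, PKP2 and GJA7 were called (limma, adjusted p 0.0118 and 0.0322), while PVRL2 was not (adjusted p = 0.0562). What part the epithelial content has in these calls was not tested. Of 24 genes named as epithelial stem cell markers none was higher and CD34, which endothelium also expresses, was lower (-1.27 ± 0.28, adjusted p = 0.0237). Of 7 enamel genes the calcium channel gene ORAI1 was higher (0.80 ± 0.18, adjusted p = 0.024). Its call was lost after scaling (limma, adjusted p = 0.127).

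At the border of epithelium and mesenchyme, 3 of 53 basal lamina and integrin genes were higher and 2 lower. ITGA3, the laminin receptor subunit of epithelia, had 61.2, 31.1 and 55.9 RPKM in IS and 23.6, 12, 12.3, 10.5 and 6.24 RPKM in PIS (1.96 ± 0.36, adjusted p = 0.0149). FBLN2, a fibulin of basement membranes, had 102, 53.2 and 81.2 RPKM in IS and 24.7, 21.6, 33.4, 25 and 23.2 RPKM in PIS (1.57 ± 0.21, adjusted p = 0.00708). LAMA2 was higher (1.16 ± 0.29, adjusted p = 0.0332), whereas LAMA4, a laminin chain of vessel walls, had 17.2, 19.5 and 20.6 RPKM in IS and 34.3, 49.4, 41.6, 31.5 and 68.5 RPKM in PIS (-1.17 ± 0.23, adjusted p = 0.0171). The type IV collagen gene COL4A1 fell by 0.80 (adjusted p = 0.0448) but was not called without PIS replicate 4 (adjusted p = 0.0636) or after scaling (adjusted p = 0.0501). LAMA2 was not called after scaling either (limma, adjusted p = 0.12). Collagens as a list had a median of 0.00, with 0 higher and 3 lower of 32 (9.38%, beside 1.13% of all genes). The 3 were COL28A1, COL8A1 and COL4A1, of which 2 were called without PIS replicate 4.

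Matrix genes other than collagens went both ways. Of 51 proteoglycan, elastic fibre and matricellular genes, 5 were higher and 3 lower. The hyaluronan synthase genes HAS3 and HAS2 rose, HAS3 with 16.7, 8.59 and 15.7 RPKM in IS and 2.79, 2.47, 2.87, 9.62 and 1.98 RPKM in PIS (1.83 ± 0.43, adjusted p = 0.0264) and HAS2 with 7.8, 8.51 and 7.22 RPKM in IS and 3.46, 3.41, 5.7, 3.36 and 5.4 RPKM in PIS (0.84 ± 0.21, adjusted p = 0.0307). PIS replicate 4 lay inside the IS range for HAS3. VCAN, the gene of the hyaluronan-binding proteoglycan versican, had 13.8, 14 and 12.3 RPKM in IS and 4.24, 4.24, 10.3, 4.45 and 3.91 RPKM in PIS (1.32 ± 0.28, adjusted p = 0.02). KERA, the keratocan gene, rose by 2.19 ± 0.36 (adjusted p = 0.00976) and SDC3 by 0.62 ± 0.17 (adjusted p = 0.0428). SBSPON, PODN (-1.45 ± 0.35) and MFAP5 (-1.31 ± 0.37) were lower. After scaling KERA was the one rise kept, and SDC3 was not called without PIS replicate 4 (adjusted p = 0.0658). Of 50 metalloproteinase genes and their inhibitors, MMP13, ADAMTS17 (1.39 ± 0.24, adjusted p = 0.0117) and ADAMTS18 (2.51 ± 0.59, adjusted p = 0.0276) were higher and none was lower. That is 6% higher, below the 11% of all genes.

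Mineralisation genes were called in 6 of 19 cases, all higher (31.6%, beside 11% of all genes, median 0.59). ANKH, which exports pyrophosphate, had 34.2, 28.3 and 29.4 RPKM in IS and 8.76, 8, 10.8, 13.8 and 13.1 RPKM in PIS (1.48 ± 0.19, adjusted p = 0.00554). ENPP1, which makes pyrophosphate, had 3.13, 4.44 and 2.82 RPKM in IS and 0.852, 0.68, 1.76, 1.63 and 1.45 RPKM in PIS (1.18 ± 0.27, adjusted p = 0.025). The phosphate importer gene SLC20A1 rose by 0.78 ± 0.21 (adjusted p = 0.0405). RUNX2 and SP7, factors named above, are also on this list. SPP1, the osteopontin gene, had 21.4, 98.9 and 39.1 RPKM in IS and 12.1, 16.8, 9.42, 18.3 and 21.5 RPKM in PIS (1.51 ± 0.43, adjusted p = 0.0485). IS replicate 2 stood out for SPP1 as for MMP13, IS replicate 1 lay within the PIS range, and the call was lost without PIS replicate 4 (adjusted p = 0.0603). Cartilage and bone markers, SPP1 and SP7 among them, summed to 119, 262 and 137 RPKM in IS and 81.7 to 135 RPKM in PIS. The SPP1 value of IS replicate 2 is thus itself part of the 262 RPKM. What part cartilage and bone tissue has in these calls was not tested. Of the 6, ANKH alone was called after scaling (adjusted p = 0.0232).

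Sterol synthesis was the metabolic list with the highest share of calls. Cells make cholesterol from acetyl units through the mevalonate pathway, under the control of the SREBP2 factor. Of 37 genes of cholesterol and fatty acid synthesis, 18 were higher (48.6%, beside 11% of all genes), none was lower, and 36 of 37 had a fold change above 0 (median 0.68). SREBF2, the gene of SREBP2, had 32.8, 27.2 and 32.7 RPKM in IS and 16.3, 15.5, 12.8, 12.2 and 14.2 RPKM in PIS (1.10 ± 0.14, adjusted p = 0.00538). FDPS, a mevalonate pathway enzyme, had 19.7, 13.6 and 14.2 RPKM in IS and 6.62, 6.17, 4.36, 7.55 and 5.49 RPKM in PIS (1.32 ± 0.19, adjusted p = 0.00718). SQLE, which commits squalene to sterols, had 20.5, 10.5 and 17.9 RPKM in IS and 5.93, 5.03, 3.86, 9.59 and 3.34 RPKM in PIS (1.51 ± 0.32, adjusted p = 0.0209). In all 3 the lowest IS library was above the highest PIS library.

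Enzymes called higher cover the route from its start to its end, with ACLY, MVK, IDI1, FDPS, FDFT1, SQLE, CYP51A1, EBP, SC5D, HSD17B7 and DHCR7 higher by 0.61 to 1.51. On the fatty acid side the desaturase genes FADS2 (1.47 ± 0.24, adjusted p = 0.00913) and FADS1 (0.72 ± 0.16, adjusted p = 0.0239) and the elongase gene ELOVL6 (1.11 ± 0.19, adjusted p = 0.0117) were higher. INSIG1, a target and brake of SREBP, rose by 0.82 ± 0.17 (adjusted p = 0.0204). The list kept 17 of its calls without PIS replicate 4 (EBP being lost, adjusted p = 0.0711), 17 without PIS replicate 5 and 7 after scaling, among them SREBF2, FDPS and FADS2.

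Nucleotide synthesis and one-carbon genes had 12 higher of 34 (35.3%, beside 11% of all genes) and none lower. RRM1, the large subunit of ribonucleotide reductase, had 37.7, 30.6 and 35 RPKM in IS and 13.6, 12.6, 18.2, 14.3 and 11.5 RPKM in PIS (1.28 ± 0.16, adjusted p = 0.00538). TYMS, which makes thymidylate, rose by 1.57 ± 0.26 (adjusted p = 0.01) and DCK, a salvage kinase, by 1.16 ± 0.15 (adjusted p = 0.00554). The pyrimidine genes CAD, DHODH, UMPS and CTPS and the purine genes GART, ADSS and IMPDH2 were also higher, by 0.59 to 1.16. GART and UMPS were not called without PIS replicate 4 (adjusted p 0.0564 and 0.0683), nor ADSS without PIS replicate 5 (adjusted p = 0.0567). For comparison, 42 of 51 cell cycle and replication genes were higher. In the amino acid list 5 of 42 were higher (11.9%, close to the 11% of all genes), 4 of them without PIS replicate 4. The smallest p was that of SHMT1, a serine and glycine enzyme, with 7.19, 6.62 and 6.69 RPKM in IS and 1.28, 1.26, 1.64, 2.66 and 2.08 RPKM in PIS (1.72 ± 0.22, adjusted p = 0.00554). SHMT1 alone of the 5 was called after scaling (limma, adjusted p = 0.0195). ASNS, the asparagine synthetase gene, rose by 1.11 ± 0.30 (adjusted p = 0.0408).

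Glycolysis and hypoxia genes had 6 higher of 35 (LDHA, ENO1, LDHB, PGK1, SLC16A1 and GAPDH), by 0.41 to 0.83. LDHA, a lactate dehydrogenase gene, had 52.9, 41.1 and 43.8 RPKM in IS and 21.7, 21.5, 32, 25.5 and 27.9 RPKM in PIS (0.83 ± 0.16, adjusted p = 0.0159). None of the 6 was called after scaling (limma; adjusted p of LDHA 0.0989), and 3 of the 6 were called without PIS replicate 4 and 4 without PIS replicate 5. Oxidative phosphorylation and the citrate cycle had 19 higher of 86, of which 13 were kept without PIS replicate 4, 18 without PIS replicate 5 and ATP5B alone after scaling, and their median of 0.29 was close to the 0.28 of all genes. Of 94 pumps, channels and exchangers 11 were higher and 3 lower, close to the share of all genes. The potassium channel gene KCNQ3 had 7.32, 3.35 and 7.38 RPKM in IS and 1.87, 1.09, 1.41, 1.02 and 1.24 RPKM in PIS (1.78 ± 0.27, adjusted p = 0.00822), and the bicarbonate transporter gene SLC4A4 rose by 1.70 ± 0.30 (adjusted p = 0.0116). KCNE4 (-1.25 ± 0.27), ATP1B4 (-1.03 ± 0.24) and TRPC6 (-1.26 ± 0.33) were lower. Without PIS replicate 4, 7 of the 11 higher genes kept their call, and TRPC6 did not (adjusted p = 0.0529). Steroid, bile acid and drug metabolism had 8 higher of 39, with AKR1D1 far ahead of GSTO1 (0.80 ± 0.16) and HSD17B7 (0.97 ± 0.21).

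Chromatin genes had 24 higher of 64 (37.5%, beside 11% of all genes, median 0.54) and none lower. UHRF1, which directs maintenance methylation to new DNA, had 18.4, 10.5 and 15.5 RPKM in IS and 3.07, 3.25, 4, 4.04 and 3.42 RPKM in PIS (1.89 ± 0.19, adjusted p = 0.00203). Its partner DNMT1 rose by 0.85 ± 0.21 (adjusted p = 0.0336). SMARCC1, a subunit of the BAF remodelling complex, had 20.6, 16.5 and 21 RPKM in IS and 9.23, 9.44, 9.03, 10.03 and 6.94 RPKM in PIS (1.07 ± 0.15, adjusted p = 0.00718). RBBP4, a histone-binding subunit of several complexes, rose by 0.95 ± 0.14 (adjusted p = 0.00718). The histone variant genes H2AFZ, H2AFV, H2AFX and H3F3A rose by 1.22, 1.0, 1.37 and 0.82. HMGA1, an architectural factor, was near 0 in PIS at 0 to 0.368 RPKM, against 1.62 to 2.32 RPKM in IS (1.80 ± 0.26, adjusted p = 0.00718). All 24 remained called without PIS replicate 4, 22 without PIS replicate 5 and 11 after scaling.

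Proteasome, splicing, ribosome biogenesis and translation lists had medians of 0.31 to 0.40, beside 0.28 for all genes. Of 79 proteasome, chaperonin and heat shock genes 21 were higher, with CCT3, a chaperonin subunit, at the smallest p. CCT3 had 41.2, 34.5 and 36.1 RPKM in IS and 19.8, 20.7, 21.1, 20.9 and 21.2 RPKM in PIS (0.83 ± 0.11, adjusted p = 0.00594). Splicing factors had 19 higher of 87, led by HNRNPA0 (0.93 ± 0.14, adjusted p = 0.00718) and LSM6 (1.20 ± 0.20, adjusted p = 0.00976). Ribosome biogenesis had 18 higher of 94, led by NOLC1 (0.83 ± 0.16) and BOP1 (0.87 ± 0.17), and translation factors and tRNA synthetases 13 of 92, led by EIF4G2 (0.67 ± 0.12) and EIF5A (0.60 ± 0.10). Of these 21, 19, 18 and 13 genes, 19, 13, 14 and 11 kept their call without PIS replicate 4, and 15, 14, 14 and 11 without PIS replicate 5. After scaling the higher counts were 2, 2, 1 and 0, and 5 splicing factors were called lower. Nuclear pore and karyopherin genes had 7 higher of 56, among them RCC1 (1.04 ± 0.18), KPNA2 (1.77 ± 0.33) and IPO5 (0.73 ± 0.16). ER and secretory genes had 6 of 85, among them PDIA6 (0.65 ± 0.16), CALR (0.95 ± 0.24) and STT3B (0.77 ± 0.20). These shares are 12.5% and 7.06%, beside 11% of all genes. Of the ER genes 3 kept their call without PIS replicate 4 and 5 without PIS replicate 5. Ribosomal proteins stood below the general share, at 2 of 76 cytosolic (RPL18 and RPL22L1) and 3 of 69 mitochondrial ones (MRPS7, MRPL51 and MRPL11). RPL18 was not called without PIS replicate 4 (adjusted p = 0.0567) or PIS replicate 5 (adjusted p = 0.0635).

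Of the lists of other cell types, those of leukocytes and of endothelial and mural cells moved with the stage. Leukocyte genes were higher in 7 of 18 cases (38.9%, beside 11% of all genes). The sum of all 30 listed, of which 11 stayed under 1 RPKM in every library, was 240 to 328 RPKM in IS against 173 to 191 RPKM in PIS. C1QC, a complement gene of macrophages, had 8.75, 9.62 and 7.74 RPKM in IS and 3.86, 4.64, 3.39, 3.82 and 4.87 RPKM in PIS (1.0 ± 0.16, adjusted p = 0.00893). C1QB (1.30 ± 0.22), C1QA (1.33 ± 0.23) and CSF1R (1.60 ± 0.33), a receptor of the macrophage and osteoclast lineage, rose with it. The T cell genes CD3D and CD3E each rose by 0.79, and CD74 of antigen presentation by 1.03. Of these, C1QA, C1QB and C1QC were called after scaling. Endothelial and mural genes were lower in 14 of 29 cases (48.3%, beside 1.13% of all genes). Their sum was 220 to 313 RPKM in IS, against 468, 631, 503, 316 and 738 RPKM in PIS. PIS replicate 4 was the PIS library nearest to IS, and without it 18 were lower, against 11 without PIS replicate 5. Of 24 fibroblast genes MFAP5 alone was called, lower, and its call was lost without PIS replicate 4 (adjusted p = 0.0655) or PIS replicate 5 (adjusted p = 0.0606). Of the remaining lists, Schwann and nerve genes had NEFH higher and SOX10 lower of 14, melanocyte genes had SLC45A2 higher of 7, the red blood cell gene GATA1 was lower of 4, the muscle gene DES.1 was lower of 3, and SP7 and SPP1 were higher of 13 cartilage and bone genes. The calls of SOX10 and GATA1 were lost without PIS replicate 4, and that of GATA1 also without PIS replicate 5. The mucous list had 1 gene tested, SPDEF, which was not called (adjusted p = 0.0745).

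PIS replicate 4 carried genes that the other PIS libraries lacked. Counting genes at 4 RPKM or more and at least 4 times the highest other PIS library, it had 29, against 7, 5, 17 and 2 in PIS replicates 1, 2, 3 and 5. In 18 of the 29 every IS library was also above the other 4 PIS libraries. The same count was 0 of 7, 0 of 5, 6 of 17 and 1 of 2 for PIS replicates 1, 2, 3 and 5. Such genes were selected for low values in the other 4 PIS libraries. The share of all genes tested with IS above those 4 was not computed. The 25.2% given above is for all 5 and is no match for it. Others of the 29 were low in IS. CKM read 9.72 RPKM in PIS replicate 4 and a mean of 0.0599 RPKM in IS. CA6, ECEL1, PENK and CPLX2 had IS means of 0.286 to 0.360 RPKM. SHH, the hedgehog ligand of tooth signalling centres, stood at 22, 4.23 and 18 RPKM in IS and 0.174, 0.032, 0.241, 23.5 and 0 RPKM in PIS. The value of PIS replicate 4 exceeded every IS library, and SHH was not called (3.31 ± 1.19, adjusted p = 0.0892). That library had been singled out by its SHH and SP6 values, so values without it are a description and not a test. The difference in SHH was then 4.38. SP6, a factor of dental epithelium, stood at 58.4, 10.3 and 44.5 RPKM in IS and 0, 0.142, 0.426, 21.1 and 0.0415 RPKM in PIS (4.57 ± 1.16, adjusted p = 0.0337). Its change was 5.59 without PIS replicate 4. With that library kept, the call of SP6 was lost after scaling and on leaving out any 1 of the other 4 PIS libraries (adjusted p 0.0514 to 0.0695).

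Among the other named genes of PIS replicate 4, NOXO1, SERPINA12 and PDZK1IP1 were also high in IS replicates 1 and 3. NOXO1, an oxidase organiser gene, had 6.25, 1.26 and 3.98 RPKM in IS and 0.0283, 0.0936, 0.0704, 6.21 and 0 RPKM in PIS. SERPINA12, a serpin gene, had 9.52, 1.95 and 9.13 RPKM in IS and 0.105, 0.0869, 0, 6.56 and 0 RPKM in PIS. PDZK1IP1 had 6.96, 1.06 and 6.07 RPKM in IS and 0.163, 0.161, 0.162, 9.09 and 0 RPKM in PIS. In each the 3 high libraries were IS replicates 1 and 3 and PIS replicate 4, with IS replicate 2 between them and the rest. They were selected for their level in that library, and none of the 3 was called in the full set. For SSTR5, KLK15 and BLNK, PIS replicate 4 was the highest of the 8 libraries (5.14, 5.64 and 11.1 RPKM), and they fell short of the expression filter without it.

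**Figure D5:**
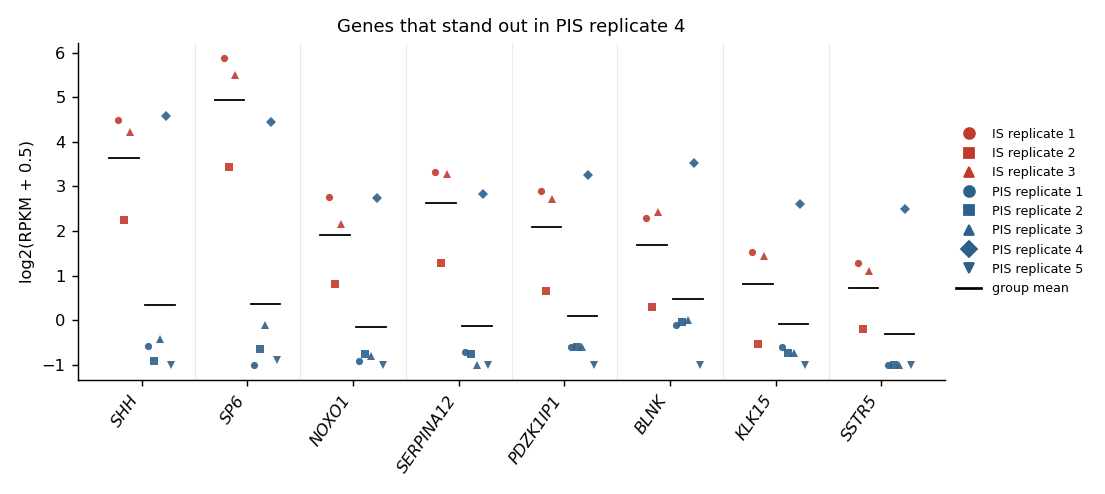
log2(RPKM + 0.5) of 8 genes that stand out in PIS replicate 4 (blue diamond), with the 3 IS libraries in red on the left, the 5 PIS libraries in blue on the right and the group mean as a bar. SHH reads 23.5 RPKM in PIS replicate 4, beside 4.23 to 22.0 RPKM in IS and 0 to 0.241 RPKM in the other PIS libraries.

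Several tooth genes passed the test only when PIS replicate 4 was left out, and they were picked after that was seen, so their values without it are a description too. Its level of DLX5, a factor of dental mesenchyme and epithelium, was within the IS range, with 78.2, 73.1 and 73.3 RPKM in IS and 23, 19.8, 30.3, 73.7 and 38 RPKM in PIS (1.46 without it). DLX3 had 49.7, 29.3 and 40.5 RPKM in IS and 8.78, 6.57, 5.15, 51.6 and 8.97 RPKM in PIS (2.36 without it). MSX2, a BMP-responsive homeobox gene, had 20.2, 11.9 and 25.7 RPKM in IS and 1.76, 2.46, 9.55, 27.2 and 0.804 RPKM in PIS (2.63 without it). In these 3 genes PIS replicate 4 was above the median of IS. The enamel gene FAM20A differed by 1.12 without it, the connexin gene GJA1 by 1.31 and the ligand gene WNT10A by 1.55. The endothelial genes CDH5 and VWF were lower without that library, by 1.02 and 1.74.

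Most named calls were also made without PIS replicate 4. Of the 161 named called genes, 146 were called without PIS replicate 4 and 146 without PIS replicate 5. Most named genes were selected by their results in the full set, so these counts do not stand for all calls. Among all 1355 higher and 139 lower calls, 1116 and 118 were kept without PIS replicate 4. FGF3, FGF10, EDAR, BMP7, WLS, SREBF2 and UHRF1 were called in both (without PIS replicate 4, adjusted p 0.00076, 0.00835, 0.00239, 0.00597, 0.00858, 0.00675 and 0.00271).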

How the data were processed

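The authors deposited 1 table of RPKM values (reads scaled to the length of the gene model and the alignments of the library) for the 17 samples of the series, of which the 3 IS and 5 PIS columns were used. Columns were matched to samples through the sample descriptions and groups came from the titles. The submitters' processing notes list TopHat2 2.1.0 and Partek 3 without saying what each did. The sources used here give no genome build, annotation or strand setting. No positions are therefore reported, and overlapping or antisense genes are uncertain. A row of alignment totals was removed, and it gives depths of 9667270 to 29195900 alignments in the 8 libraries. Because the values are RPKM, count-based tests were not used and no counting intervals are given. Gene names are those of the table, of which 19 had been turned into dates and were not named. Of the 12271 genes tested, 1283 carry bare model identifiers and 329 LOC numbers, and 9139 names matched the RefSeq gene table.

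Values were taken as log2(RPKM + 0.5) and fitted by limma (version 3.58.1, R version 4.3.3) with 2 group means and moderated variances that follow a trend with expression. The filter asked for 1 RPKM or more in 3 or more of the 8 libraries, and a call for a p under 0.05 after Benjamini-Hochberg adjustment over all tested genes. On simulated data of 12271 genes with 200 changed, the fit recovered 70% of log2 changes of 1 and 89% of changes of 2, and called 10 unchanged genes. The simulated noise was normal, independent between genes and equally wide in all libraries, and unchanged genes had no general shift. These rates therefore need not hold for the real libraries. In total 56 gene lists were described by counts and medians. The members and lists were chosen with earlier results of these data known. Genes were named by a rule: the 15 called genes with a symbol that rose most and the 15 that fell most without overlap between groups, up to 3 called members of each list and direction by smallest p, or the smallest p where none was called. The rule added SHH, SP6, SOX2, FGF3, EDAR, LEF1, MSX1, BMP4 and the 8 genes standing out most in PIS replicate 4. Some genes that the rule or lists hold are not reported here. Other genes named in the text were chosen after their values were seen.

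Alternatives were pseudocounts of 0.1 and 1, no filter, a mean of at least 5 RPKM, median-ratio scaling, quantile normalization, array weights, no trend, fits of 12 and of 17 libraries, a replicate block, a minimum log2 fold change of 1, and each library left out in turn.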

Additional observations from a re-analysis of the deposited data

Results flagged for a closer look

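In 18 of the named genes 1 PIS library lay far from the other 4 on the log2 scale, by a gap of over 0.71 of the group's range (Dixon's limit for 5 samples). Chance flags about 1 in 20 groups, and 174 named genes were looked at. The 8 genes that had been selected because PIS replicate 4 stood apart were high in that library by construction. They are SHH (23.5 RPKM), SP6 (21.1 RPKM), BLNK (11.1 RPKM), PDZK1IP1 (9.09 RPKM), SERPINA12 (6.56 RPKM), NOXO1 (6.21 RPKM), KLK15 (5.64 RPKM) and SSTR5 (5.14 RPKM).

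The same library was also high for the hyaluronan synthase gene HAS3 (9.62 RPKM) and for FGF3 (0.496 RPKM), and low for the nucleolar gene NOP56 (10.3 RPKM). PIS replicate 5 was low for the WNT carrier gene WLS (22.0 RPKM), the FGF inhibitor gene IL17RD (0.110 RPKM) and the remodelling gene SMARCC1 (6.94 RPKM). PIS replicate 1 was high for the ligand gene FGF10 (4.40 RPKM), and PIS replicate 3 was high for versican (VCAN, 10.3 RPKM). PIS replicate 2 was low for the homeobox gene MSX1 (32.8 RPKM) and for the splicing gene HNRNPA0 (13.2 RPKM).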

How the results depend on the processing

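The number of genes called, 1494 in all, stayed within 1.5 times of that with pseudocounts of 0.1 and 1, no filter, no trend, and without PIS replicates 4 and 5 (1174 to 1569). It was 949 with the stricter filter, which tests fewer genes. It was 521 after median-ratio scaling, 613 after quantile normalization (331 higher and 282 lower), 4503 with array weights, 3166 with 12 libraries in the fit and 2646 with 17. It was 598 when a log2 fold change of 1 was also required. Median-ratio scaling without PIS replicate 4 gave 629 calls, beside 1464 without that library alone, and was chosen after seeing the data. For the counts that moved with scaling, weights or libraries, the cause was not tested. Leaving out 1 library gave 8 to 1464 calls: 8 without IS replicate 1, 18 without IS replicate 3, 864 without IS replicate 2 and 876 without PIS replicate 2 moved by over 1.5 times. With the replicate number as a block 971 genes were called (811 higher and 160 lower). Same-numbered IS and PIS libraries deviated together with correlations of 0.372, -0.317 and 0.227. So few pairs cannot decide whether the numbers pair the samples, and the labels do not say what a replicate is. No called named gene changed sign in a fit that tested it. Among genes not called, the fold change of SOX2 ran over the left-out libraries from -0.189 to 0.029 (without PIS replicate 2). That of MSX1 ran from -0.41 to 0.000808 (without IS replicate 3) and was 0.00183 with the replicate block and without PIS replicates 4 and 5. That of BMP4 ran from -0.0315 (without PIS replicate 5) to 0.389, and was -0.0466 after median-ratio scaling and -0.14 after quantile normalization. A depth of 9667270 alignments in PIS replicate 3 limits the precision of its low values.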

Other observations

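Some signalling genes that were not called with all 8 libraries were called without PIS replicate 4, and they are described here as values chosen after they were seen, with adjusted p that depend on leaving out a library known to stand apart. The TGF-beta receptor genes TGFBR2 and TGFBR3 were lower in IS. TGFBR2 had 21.5, 30.8 and 22.2 RPKM in IS and 39.9, 46.2, 41.8, 22.8 and 59.5 RPKM in PIS, with a log2 fold change of -0.90 without PIS replicate 4 (limma, adjusted p = 0.0197) and -0.70 ± 0.27 with it (adjusted p = 0.103). TGFBR3 had 13, 22 and 20.3 RPKM in IS and 31.3, 35.2, 39, 18.3 and 41.6 RPKM in PIS (-1.01 without PIS replicate 4, adjusted p = 0.0171). For both genes the value of PIS replicate 4 lay close to or within the IS range and the other 4 PIS libraries lay above it. Insulin-like growth factor gene IGF2 had 4.96, 11.1 and 7.61 RPKM in IS and 15.5, 19.5, 12.1, 8.68 and 28.7 RPKM in PIS (-1.21 without PIS replicate 4, adjusted p = 0.0444).

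The WNT ligand genes, WNT3A and WNT7A, were higher in IS without that library. WNT3A had 1.15, 1.31 and 1.54 RPKM in IS and 0.269, 0.544, 0.0744, 1.21 and 0 RPKM in PIS (1.40, adjusted p = 0.0271), and WNT7A had 1.29, 1.12 and 1.72 RPKM in IS and 0.428, 0.398, 0.533, 2.52 and 0 RPKM in PIS (1.20, adjusted p = 0.0429). In PIS replicate 4 both stood at or above the lowest IS library. Both stayed under 1 RPKM in the other PIS libraries, so without PIS replicate 4 they met the filter only through IS. Values of 1 RPKM or more in every IS library were then a condition of being tested and are no added support. The niche factor gene RUNX1 was higher at 1.16 (adjusted p = 0.0223), with 5.8, 4.87 and 6.76 RPKM in IS and 1.39, 2.82, 2.31, 5.03 and 3.05 RPKM in PIS. The BMP-responsive gene ID3 was higher at 0.94 (adjusted p = 0.0426), with 139.68, 172 and 172 RPKM in IS and 56.8, 71.3, 121, 127 and 99.3 RPKM in PIS. The Notch ligand gene DLL1 was lower at -0.65 (adjusted p = 0.0441), with 3.35, 2.44 and 3.2 RPKM in IS and 5.5, 4.7, 5.28, 3.65 and 4.38 RPKM in PIS.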
